A study of Mus musculus with 10 samples.

Results

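The transcripts described here are those of 10 circadian clock genes, Clock, Npas2, Per1, Per2, Per3, Cry1, Cry2, Nr1d1, Nr1d2 and Dbp, in brown adipose tissue of mice, which burns fuel to make heat. They were chosen by name, as all probe sets that the platform annotation gives to 1 of these genes alone: 23 probe sets, out of 34945 with 1 gene and 45101 in all. Arrays were made from 5 mice labelled Sirt3 KO, that is, as lacking the mitochondrial deacetylase SIRT3, and 5 WT mice. Both groups were untreated littermates on a 129 background aged about 1 year, so age and background were shared. The labels name no Cre driver and do not say which part of Sirt3 was deleted. No source used here gives the hour of dissection. Values are log2 signals of Affymetrix arrays after RMA, which scales arrays to each other and gives 1 value for all probes of a set. A gene is read by its probe set with the highest mean over the arrays unless another is named. Levels of different probe sets are compared only in that choice, in filters on low signals and where signals are called high or dim. Means of marker lists average such levels within an array and are compared between arrays.

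The mammalian clock is a transcriptional feedback loop. A dimer of the activators BMAL1 (encoded by Arntl) and CLOCK, or its relative NPAS2, binds E-box motifs and switches on the Per and Cry genes, whose proteins return to inhibit it. The same dimer drives Nr1d1 and Nr1d2, which encode the nuclear receptors REV-ERB-alpha and REV-ERB-beta, repressors of Arntl, Npas2, Clock and Cry1 through ROR elements. Dbp encodes an output factor that activates genes with D-box motifs, Per3 among them. In peripheral tissues of mice the transcripts therefore peak in sequence: Nr1d1 first, then Dbp, Nr1d2 and Per3, then Per1 and Per2, and Cry1 late, while Arntl, Npas2 and Clock run opposite to the Nr1d1 and Dbp side. Per1 and Per2 are also induced directly by glucocorticoids.

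Promoter windows of RefSeq (GRCm38.p6), 250 bases before to 50 after a start, were found for 9 of the 10 genes (12 windows), all but Per2. They were searched on both strands for the E-box CACGTG, its variant CACGTT, the D-box TTATGTAA, the ROR element TAGGTCA and the cAMP element TGACGTCA. The upstream 250 bases are shown for the promoters of 4 genes whose values are followed below, with motifs in capitals on the gene's strand (a variant E-box on the opposite strand appears as AACGTG).
Per1 promoter (GRCm38.p6, chr11:69098699-69098948, plus strand): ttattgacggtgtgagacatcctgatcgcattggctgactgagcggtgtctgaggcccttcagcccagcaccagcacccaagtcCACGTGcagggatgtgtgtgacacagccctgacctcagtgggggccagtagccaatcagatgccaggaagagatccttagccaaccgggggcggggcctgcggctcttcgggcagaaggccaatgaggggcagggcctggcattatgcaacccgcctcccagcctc
Per3 promoter (GRCm38.p6, chr4:151044666-151044915, minus strand): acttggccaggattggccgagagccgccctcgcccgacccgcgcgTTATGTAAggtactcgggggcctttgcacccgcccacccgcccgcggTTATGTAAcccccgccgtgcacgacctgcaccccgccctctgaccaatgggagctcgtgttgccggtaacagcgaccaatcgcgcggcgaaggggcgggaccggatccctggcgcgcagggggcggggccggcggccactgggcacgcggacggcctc
Cry1 promoter (GRCm38.p6, chr10:85185055-85185304, minus strand): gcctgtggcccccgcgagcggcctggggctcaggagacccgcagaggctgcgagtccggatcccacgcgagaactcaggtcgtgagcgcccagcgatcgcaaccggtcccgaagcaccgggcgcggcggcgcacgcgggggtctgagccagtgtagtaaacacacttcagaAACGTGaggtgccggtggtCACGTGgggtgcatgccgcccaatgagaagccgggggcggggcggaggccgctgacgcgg
Nr1d1 promoter (GRCm38.p6, chr11:98775378-98775627, minus strand): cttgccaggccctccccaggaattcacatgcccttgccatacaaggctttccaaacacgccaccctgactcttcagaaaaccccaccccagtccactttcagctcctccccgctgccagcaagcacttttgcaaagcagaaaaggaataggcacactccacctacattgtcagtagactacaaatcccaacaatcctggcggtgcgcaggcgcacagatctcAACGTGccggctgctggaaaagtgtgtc

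Per1 held an E-box starting 166 bases upstream, and Cry1 held one at 60 bases with a variant at 79. Per3 held 2 D-boxes, at 205 and 158 bases, and Nr1d1 held a variant E-box at 28 bases. Cry2, not shown, held a variant at 166 bases. Of all 32851 windows, 7.15% held CACGTG, 4.68% CACGTT, 0.938% TTATGTAA, 2.61% TAGGTCA and 1.79% TGACGTCA. Windows of Clock, Npas2, Nr1d2 and Dbp held none of these letters. These matches describe sequence only.

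All 10 arrays resembled each other, with correlations across probe sets of 0.988 to 0.997, and the labels name no batch. Brown adipocyte markers gave high signals on average in every array. The mean log2 signal over 8 of 8 listed genes, Ucp1 among them, was 12.07 to 12.35 in arrays labelled KO and 12.07 to 12.73 in WT. It was highest in WT 4 and WT 5, at 12.63 and 12.73. Single markers differed in spread: Ucp1 ran from 13.96 in KO 3 to 14.28 in WT 5. Dio2 ran from 8.65 in WT 2 to 11.32 in WT 5, and Elovl3 from 9.42 in KO 3 to 11.55 in WT 3. Sirt3 itself was not lower in arrays labelled KO, at 10.32 ± 0.07 log2 units against 10.13 ± 0.10 in WT (SD, n = 5 each; difference 0.19, adjusted p of limma 0.885). Whether its probes lie in the deleted part is unknown, and KO below means arrays so labelled. Skeletal muscle markers (12 of 12 measured) varied most, with a list mean of 5.07 to 11.59 in KO and 7.79 to 11.98 in WT. In such bulk tissue, fewer cells of a type and less RNA per cell cannot be told apart.

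No clock gene differed between genotypes past the test. Of the 10 genes, 5 were higher and 5 lower on average in KO than in WT arrays (43.9% and 56.1% of all genes), with a median difference of 0.03 log2 units, against -0.01 over all 18193 genes. By limma, a linear model with moderated variances, 0 of 23 member probe sets had an adjusted p under 0.05 and 0 had an unadjusted p under 0.05, where the shares over all 34945 probe sets were 0% and 5.41%. The smallest adjusted p of a member set was 0.885. The KO and WT arrays did not overlap in 1 member set, the second set of Npas2 (1421037_at, 3.15 to 3.35 in KO and 3.08 to 3.14 in WT); the share over all probe sets was 0.693%. The transcripts varied between mice: the SD within groups lay above the 90th percentile of all genes for 6 of the 10, where 10% of genes do.

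**Figure D1:**
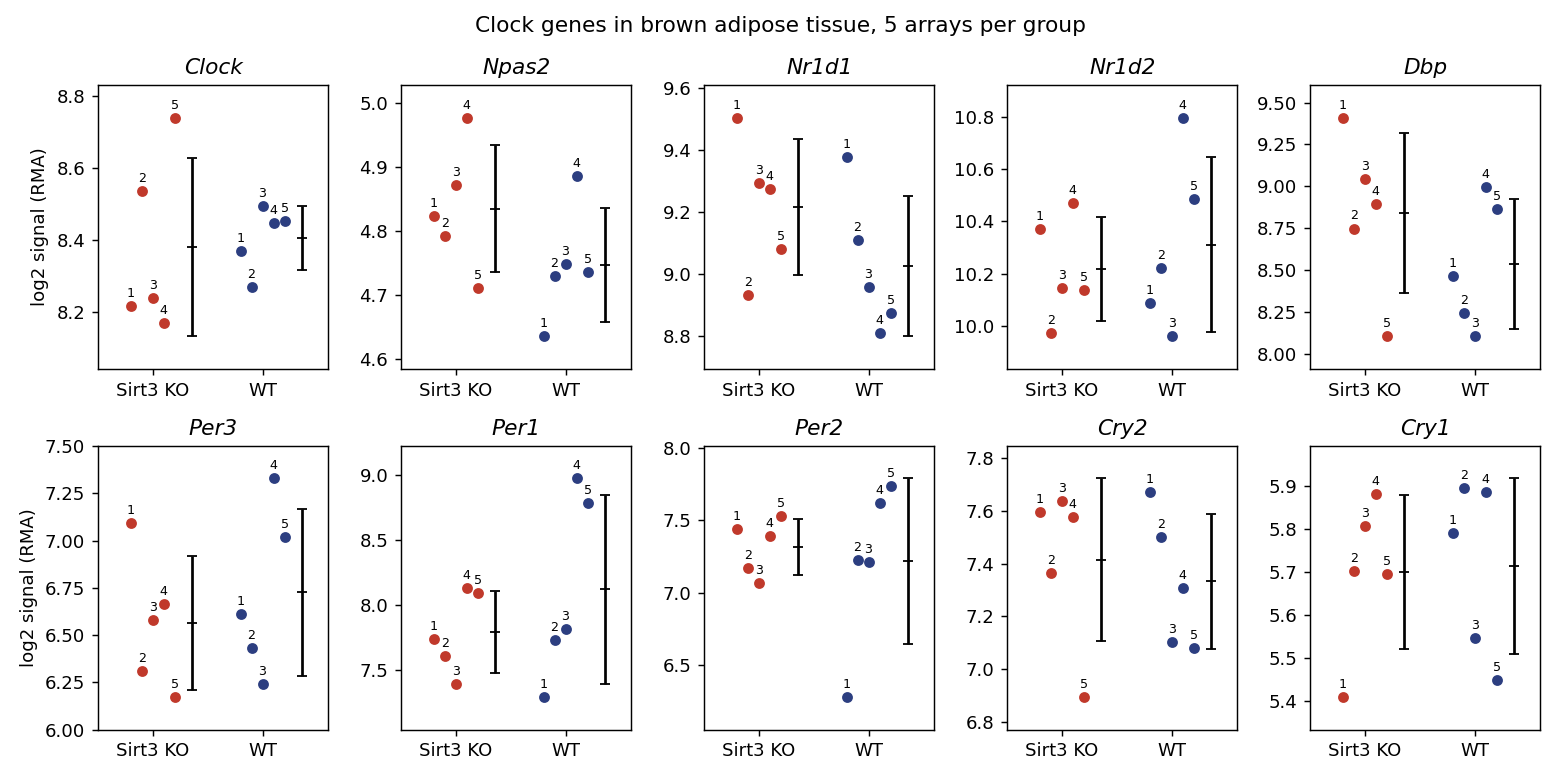
RMA log2 signal (y axis, a separate range for each panel) of each clock gene in 5 Sirt3 KO arrays (red, left) and 5 WT arrays (blue, right). Points are arrays with their replicate numbers, and black bars are the group mean ± SD. The groups overlap in every panel, and WT 4 and WT 5 are the highest arrays for Per1 and Per2.

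The activators spanned small ranges over arrays, 1.48-fold for Clock and 1.27-fold for Npas2. Clock (1418659_at), the DNA-binding partner of BMAL1, gave 8.22, 8.54, 8.24, 8.17 and 8.74 log2 units in KO 1 to 5, and 8.37, 8.27, 8.49, 8.45 and 8.45 in WT 1 to 5. The WT values lay inside the KO range, whose ends were KO 4 and KO 5. The difference was -0.03 ± 0.11 log2 units (KO minus WT ± SE, as in all differences below; 95% interval -0.26 to 0.21; adjusted p of limma 0.980). Of its 3 further probe sets, 2 gave -0.06 and -0.05, and 1439314_at gave 0.11. Npas2 (1421036_at), which can take the place of Clock, gave 4.82, 4.79, 4.87, 4.98 and 4.71 in KO 1 to 5, and 4.64, 4.73, 4.75, 4.89 and 4.74 in WT 1 to 5. The difference was 0.09 ± 0.065, or 0.05 without KO 4. Its 2 probe sets correlated at r = 0.30 over the arrays, and how well either reads the transcript was not tested. Both were dim, with means of 4.79 and 3.15, where the median over genes was 6.50.

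The REV-ERB genes were high in different arrays. Nr1d1 (1426464_at), which encodes the repressor that peaks early, gave 9.50, 8.93, 9.29, 9.27 and 9.08 in KO 1 to 5, and 9.38, 9.11, 8.96, 8.81 and 8.88 in WT 1 to 5. It was highest in KO 1 and WT 1 and lowest in WT 4 and WT 5. The difference was 0.19 ± 0.12 (95% interval -0.08 to 0.46; adjusted p of limma 0.885). It ran from 0.12 without KO 1 to 0.28 without WT 1, and was 0.07 without WT 4 and WT 5. Nr1d2 (1416958_at) gave 10.37, 9.97, 10.14, 10.47 and 10.14 in KO 1 to 5, and 10.09, 10.22, 9.96, 10.80 and 10.49 in WT 1 to 5. Here WT 4 and WT 5 were the highest arrays. Its difference was -0.09 ± 0.15 with this set and 0.05 ± 0.14 with the other, and the sets correlated at r = 0.86. Over the arrays Nr1d1 and Nr1d2 gave r = -0.19 (permutation p = 0.60, adjusted over 45 pairs of members 0.74; rho = -0.19, permutation p = 0.61, adjusted 0.85; r = 0.06 without WT 4 and KO 1). The sign rests on WT 4 and WT 5, without which r was 0.66.

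Dbp, the D-box activator, had the largest positive difference of the 10 genes, at 8.84 ± 0.48 in KO and 8.53 ± 0.39 in WT (SD, n = 5 each). The difference was 0.31 ± 0.23 log2 units (1.24-fold; 95% interval -0.20 to 0.81; adjusted p of limma 0.892). The set read, 1418174_at, gave 9.41, 8.75, 9.05, 8.89 and 8.11 in KO 1 to 5, and 8.47, 8.24, 8.10, 9.00 and 8.87 in WT 1 to 5. KO 1 stood highest, while KO 5 lay as low as WT 3, so the groups overlapped. Its second probe set gave 0.35 ± 0.24 and correlated with the first at r = 0.96. The 2 arrays highest in Dbp, KO 1 and KO 3, were the 2 lowest in skeletal muscle markers, at 5.44 and 5.07, and Dbp correlated with that list at r = -0.71 over the 10 arrays. The difference in Dbp was 0.11 with the list as a covariate and 0.16 without KO 1. It was 0.42 without WT 4, 0.49 without KO 5 and 0.57 without WT 4 and WT 5, and positive in every alternative run.

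Per3 (1421087_at), whose promoter holds both D-boxes printed above, gave 7.09, 6.31, 6.58, 6.66 and 6.17 in KO 1 to 5, and 6.61, 6.43, 6.24, 7.33 and 7.02 in WT 1 to 5. WT 4, KO 1 and WT 5 were high, and the groups overlapped. The difference was -0.16 ± 0.22 (adjusted p of limma 0.935). With 1 array left out it ran from -0.29 without KO 1 to -0.01 without WT 4. It was -0.33 with the muscle covariate and 0.14 without WT 4 and WT 5. Its 6 probe sets fell into 2 kinds: 1442243_at and 1458176_at spanned 2.13-fold and 2.21-fold ranges and correlated with the main set at r = 0.82 and 0.70, while the other 3 spanned at most 1.22-fold and correlated at r = 0.39 or below.

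Per1 and Per2, the repressors that also respond to hormones, had the widest ranges over arrays. Per1 (1449851_at) gave 7.73, 7.61, 7.39, 8.13 and 8.09 in KO 1 to 5, and 7.29, 7.73, 7.82, 8.97 and 8.78 in WT 1 to 5. Both the lowest array, WT 1, and the highest, WT 4, were WT, 3.21-fold apart, and every KO value lay between them. The difference was -0.33 ± 0.30 (95% interval -0.98 to 0.32; adjusted p of limma 0.902). It was -0.54 without WT 1, -0.11 without WT 4, -0.16 without WT 5 and 0.18 without WT 4 and WT 5. Per2 (1457350_at) gave 7.44, 7.17, 7.07, 7.39 and 7.53 in KO 1 to 5, and 6.28, 7.23, 7.21, 7.62 and 7.74 in WT 1 to 5. WT 1 was again the lowest and WT 5 the highest, and all KO arrays lay between them. The difference was 0.10 ± 0.23, and it ran from -0.13 without WT 1 to 0.23 without WT 5, and was 0.41 without WT 4 and WT 5. Another probe set of Per2, 1417602_at, showed the same arrays at its ends with an 8.15-fold range, from 5.08 in WT 1 to 8.11 in WT 5, and a difference of 0.01 ± 0.47. The SD of Per1 was 0.32 in KO and 0.73 in WT, and that of Per2 0.19 in KO and 0.57 in WT; these spreads were not compared by a test.

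The cryptochromes, the other repressors of the loop, spanned smaller ranges than Per1 and Per2, 1.72-fold for Cry2 and 1.40-fold for Cry1. Cry2 (1426383_at) gave 7.60, 7.37, 7.64, 7.58 and 6.89 in KO 1 to 5, and 7.67, 7.50, 7.10, 7.31 and 7.08 in WT 1 to 5. KO 5 was the lowest and WT 1 the highest, and the difference was 0.08 ± 0.16. It was 0.21 without KO 5 and 0.02 without WT 5 or WT 3. Cry1 (1433733_a_at), the late member whose promoter holds the E-box at 60 bases, gave 5.41, 5.70, 5.81, 5.88 and 5.70 in KO 1 to 5, and 5.79, 5.89, 5.55, 5.89 and 5.45 in WT 1 to 5. Its difference was -0.01 ± 0.11, and its highest and lowest arrays were WT 2 and KO 1.

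**Figure D2:**
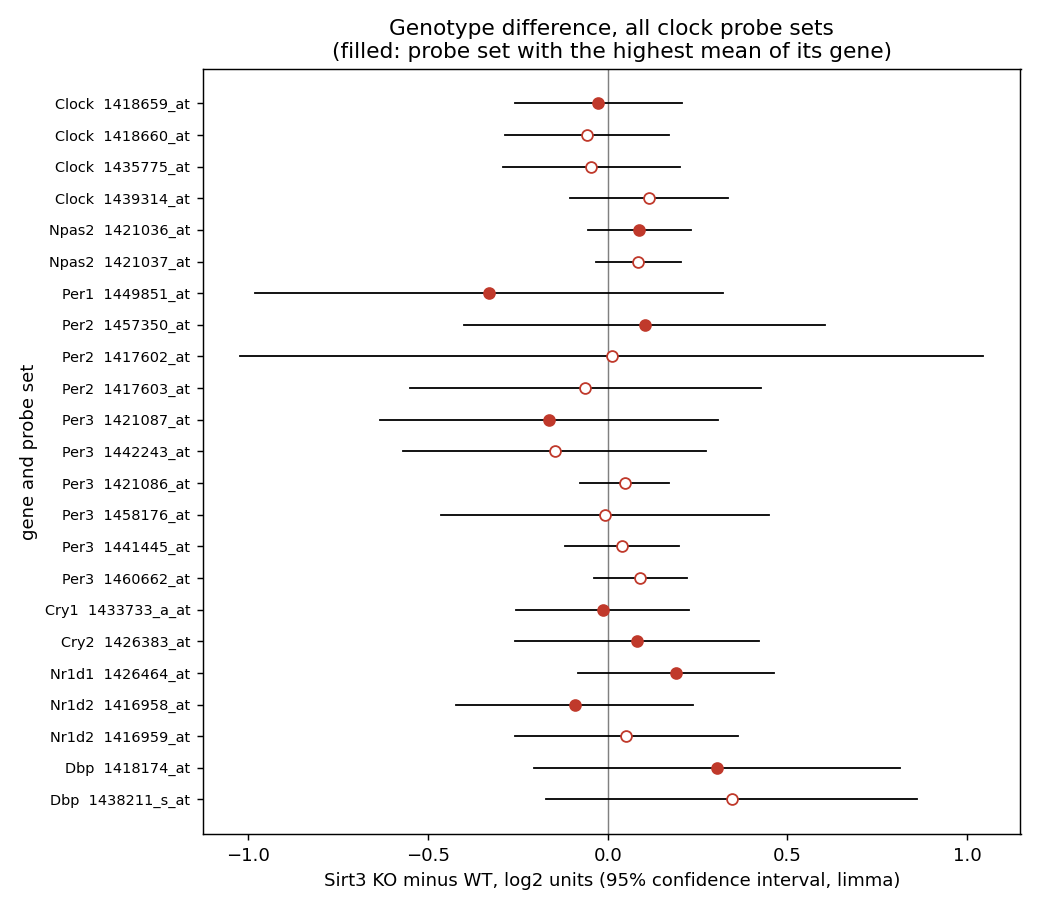
Difference in log2 signal, Sirt3 KO minus WT (x axis), for the 23 probe sets of the 10 clock genes (y axis), with 95% confidence intervals from limma as lines. Filled points are the set with the highest mean of each gene, open points the others. Every interval includes 0, and the widest belong to Per1 and Per2.

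Whether arrays lay at different clock phases was asked from genes that run opposite to each other. A phase index was formed per array as the mean of Dbp, Nr1d1, Nr1d2 and Per3 minus the mean of Npas2 and Clock, each gene first centred on its mean over the 10 arrays. It was 0.49, -0.26, 0.12, 0.16 and -0.44 in KO 1 to 5, and 0.05, -0.08, -0.39, 0.23 and 0.13 in WT 1 to 5. The index averaged 0.01 ± 0.37 in KO and -0.01 ± 0.24 in WT (SD, n = 5 each). Over the 10 arrays it correlated with the skeletal muscle list at r = -0.60 and with fibroblast markers (7 of 7 measured) at -0.61. With the brown adipocyte list r was 0.05. What tissue makeup contributes to the index was not tested. Which group spanned the wider range depended on the genes used. With Per1 and Per2 added, the index ran from -0.27 to 0.34 in KO and from -0.31 to 0.36 in WT arrays. With Arntl in place of Npas2 and Clock, an alternative added after the values were seen, it ran from -0.70 to 0.55 in KO and from -0.76 to 0.84 in WT arrays. With Npas2 and Clock averaged, most of the spread lay on the Dbp side, which reached 0.41 in KO 1 and -0.36 in WT 3. The mean of Npas2 and Clock stayed between -0.09 and 0.13. Clock alone ran from -0.22 in KO 4 to 0.35 in KO 5, and Npas2 alone from -0.16 in WT 1 to 0.19 in KO 4. Over the 10 arrays Clock and Npas2 gave r = -0.50 (permutation p = 0.15, adjusted 0.36), and r = -0.15 without KO 4 and KO 5. The narrow range of their mean thus does not show that each gene was constant. On the Dbp side, Nr1d1 gave r = 0.0021 with Per3, -0.19 with Nr1d2 and 0.31 with Dbp over the 10 arrays. Without WT 4 and WT 5 these were 0.90, 0.66 and 0.67. Per3, Nr1d2 and Dbp gave r of 0.55 to 0.87 with each other. In WT 4, centred values were -0.31 for Nr1d1, 0.53 for Nr1d2 and 0.68 for Per3, so they partly cancelled. An index near 0 thus does not show that each gene was near its mean.

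Over the 10 arrays, 45 pairs of members were compared, and 28 had a positive r. Per3 and Nr1d2, which peak near each other, went together (r = 0.87, permutation p = 0.0011, adjusted over the 45 pairs 0.039; rho = 0.82, permutation p = 0.0054, adjusted 0.12; r = 0.78 without WT 4 and KO 1). Clock and Cry2 went opposite (r = -0.85, permutation p = 0.0017, adjusted 0.039; rho = -0.75, permutation p = 0.017, adjusted 0.16; r = -0.74 without KO 4 and KO 5). Per1 and Per2 went together by rank (r = 0.78, permutation p = 0.0049, adjusted 0.055; rho = 0.90, permutation p = 0.00065, adjusted 0.029; r = 0.80 without WT 4 and WT 5). In all, 2 pairs passed by r after adjustment and 7 before it. The count depended on single arrays: it was 3 without WT 1, 1 without KO 4 and 0 without any other single array, where 4 to 10 pairs had an unadjusted permutation p under 0.05.

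**Figure D3:**
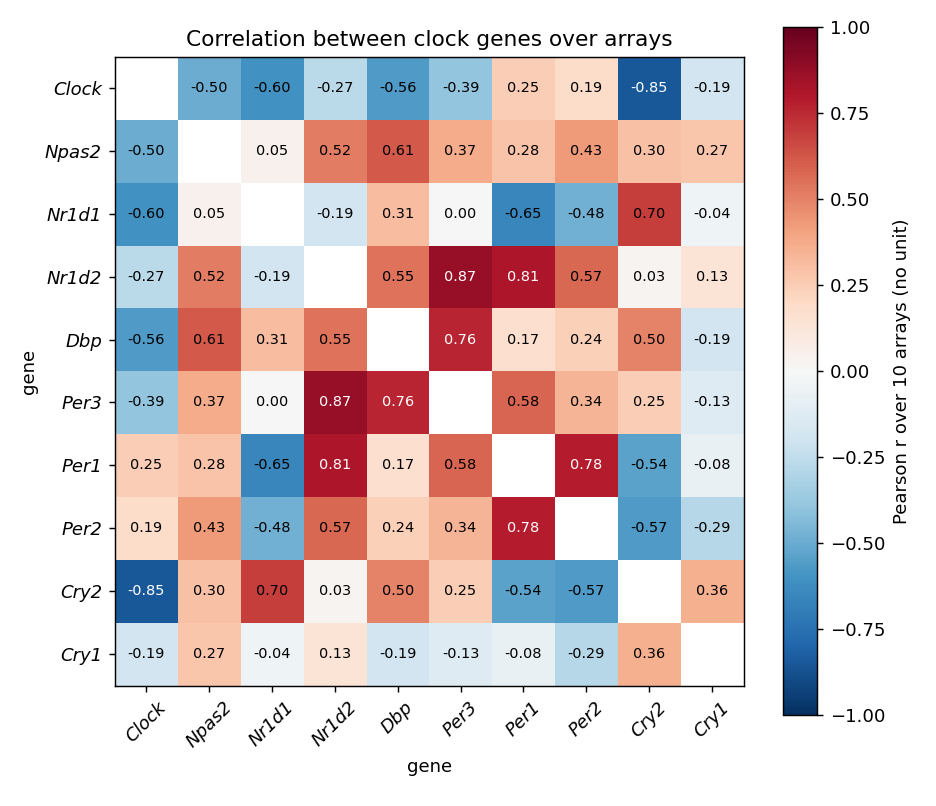
Pearson r over the 10 arrays for each pair of clock genes (rows and columns, ordered from activators to late repressors; colour from -1 in blue to 1 in red, no unit). Per3 goes with Nr1d2 (0.87) and Dbp (0.76), Clock goes opposite to Cry2 (-0.85), and Npas2 goes with Dbp (0.61).

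Further pairs did not pass over the 10 arrays with group means left in. Per3 and Dbp gave r = 0.76 (permutation p = 0.011, adjusted 0.10; rho = 0.78, permutation p = 0.0099, adjusted 0.12; r = 0.68 without WT 4 and KO 1). For this pair r was 0.93 with group means removed, and 0.84 without WT 4 and WT 5. Per1 and Nr1d2 gave r = 0.81 (permutation p = 0.0044, adjusted 0.055; rho = 0.66, permutation p = 0.045, adjusted 0.18), which was 0.43 without WT 4 and WT 5 and so rests on them. Of the textbook opposites, Clock and Dbp gave r = -0.56 (permutation p = 0.089, adjusted 0.31; rho = -0.65, permutation p = 0.049, adjusted 0.18; r = -0.37 without KO 4 and KO 5). Npas2 and Dbp had the other sign, r = 0.61 (permutation p = 0.061, adjusted 0.31; rho = 0.70, permutation p = 0.030, adjusted 0.18; r = 0.75 without WT 1 and KO 4). Against Dbp, Clock thus had the sign of an opposite phase and Npas2, read by a dim set, did not. With Nr1d1, Clock gave r = -0.60 (permutation p = 0.065, adjusted 0.31), and r = -0.79 without KO 4 and KO 5. With Per3 and Nr1d2 it gave -0.39 and -0.27. Npas2 gave r = 0.52 with Nr1d2, 0.37 with Per3 and 0.05 with Nr1d1. None of these had an adjusted permutation p under 0.05.

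Of 21 other clock genes, 19 were measured and 0 passed the test over all probe sets; 10 were higher and 9 lower in KO arrays, with a median difference of 0.00099. Csnk1e, a casein kinase that phosphorylates PER proteins, was the 1 gene of the list whose main set had an unadjusted p under 0.05 (4.68% of all genes), at 0.27 ± 0.095 (adjusted p of limma 0.885); its other 2 sets gave 0.02 and 0.0089. Arntl gave 6.59, 6.83, 6.19, 6.37 and 7.05 in KO 1 to 5, and 7.31, 6.86, 7.05, 6.34 and 5.95 in WT 1 to 5. It was highest in WT 1, where Per1 and Per2 were lowest, and lowest in WT 5, where Per2 was highest. The difference was -0.10 ± 0.25, and its second set gave 0.05. This second set (1457740_at, mean 5.17, 1.21-fold range) correlated with the main set (1425099_a_at) at r = -0.47. All values of Arntl here and below are from the main set unless the second is named.

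Relations of Arntl with the 10 members and with Ciart, a repressor of CLOCK and BMAL1, were added after the values were seen. With Dbp, Arntl gave a negative relation (r = -0.68, permutation p = 0.032, adjusted over the 11 relations 0.10; rho = -0.72, permutation p = 0.023, adjusted 0.14), and r was -0.80 without WT 1 and WT 5. With Per2 it gave r = -0.62 (permutation p = 0.042, adjusted 0.10; rho = -0.43, permutation p = 0.22, adjusted 0.34), which was -0.03 without WT 1 and WT 5 and so rests on those arrays. With Nr1d2 it gave r = -0.66 (permutation p = 0.038, adjusted 0.10; rho = -0.71, permutation p = 0.027, adjusted 0.14; r = -0.62 without the same arrays). With Ciart it gave r = -0.70 (permutation p = 0.021, adjusted 0.10; rho = -0.64, permutation p = 0.053, adjusted 0.15), which was -0.38 without WT 1 and WT 5. Npas2, which should run on the side of Arntl, gave r = -0.63 (permutation p = 0.053, adjusted 0.10; rho = -0.67, permutation p = 0.039, adjusted 0.14; r = -0.87 without the same arrays). Clock, on that side too, gave r = 0.36 (permutation p = 0.31, adjusted 0.42; rho = 0.35, permutation p = 0.33, adjusted 0.46; r = 0.66 without them). Nr1d1, on the other side, gave r = 0.19 (permutation p = 0.59, adjusted 0.72; rho = 0.28, permutation p = 0.43, adjusted 0.53; r = -0.31 without them). The signs of Npas2, read by a dim set, and of Nr1d1 over all arrays were thus not those of the textbook order. None of the 11 relations had an adjusted permutation p under 0.05, and 4 had an unadjusted one by r. Arntl also correlated with the skeletal muscle list, at r = 0.60, where Dbp had -0.71. The relation of Arntl and Dbp apart from muscle RNA was not tested. Per2 minus Arntl, each centred, was 0.24, -0.28, 0.26, 0.41 and -0.14 in KO 1 to 5, and -1.65, -0.25, -0.45, 0.67 and 1.18 in WT 1 to 5. The KO arrays lay inside the WT range, whose ends were WT 1 and WT 5. The SD was 0.29 in KO and 1.09 in WT, which were not compared by a test.

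**Figure D4:**
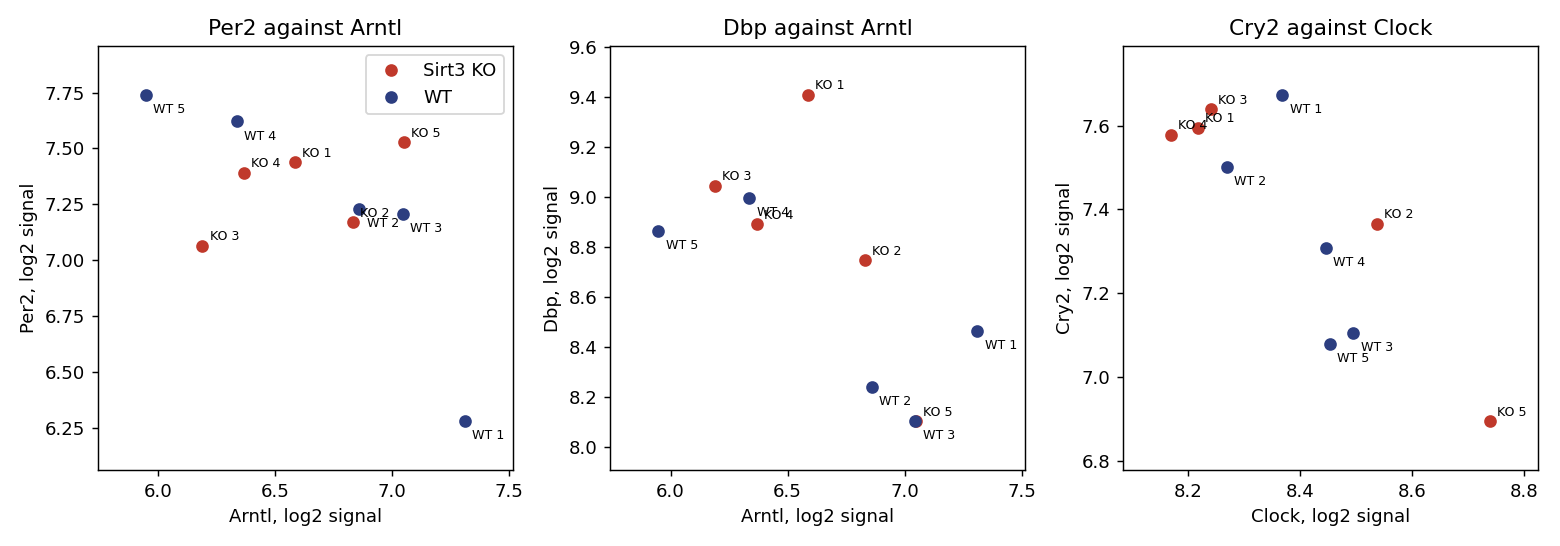
Log2 signals of Per2 against Arntl, Dbp against Arntl and Cry2 against Clock (x and y axes, log2 units) in 5 Sirt3 KO arrays (red) and 5 WT arrays (blue), each point 1 array. KO and WT arrays are intermixed (KO 5 and WT 3 coincide in the Dbp plot); WT 1 stands alone at low Per2 and high Arntl.

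WT 4 and WT 5 were the highest arrays in several further clock genes. Ciart gave 6.89 to 7.48 in KO arrays and 6.64, 6.88, 7.10, 8.34 and 8.38 in WT 1 to 5. Usp2, a rhythmic ubiquitin protease, gave 8.80 to 9.35 in KO and 8.50, 9.02, 8.99, 10.71 and 10.21 in WT 1 to 5, a 4.63-fold range. In both genes WT 4 and WT 5 lay above every other array, and WT 1 was the lowest. Tef and Hlf, which encode relatives of DBP, and Nampt, the rate-limiting enzyme of NAD salvage, were also highest in WT 4 and WT 5, at 10.63 and 10.35, 8.55 and 8.37, and 11.00 and 10.83, against KO maxima of 10.24, 8.31 and 10.31. The main set of Nampt differed by -0.27 ± 0.15. Its further sets gave -0.39 ± 0.14 and -0.40 ± 0.14, with unadjusted p of 0.015 and 0.013 and adjusted p of limma 0.885. For Tef the main set gave -0.05, and 2 further sets gave 0.15 and 0.26. Nfil3, a repressor that competes with DBP for D-boxes, was high in KO 4 and KO 5 too (8.61 and 8.21, against 8.49 and 8.37 in WT 4 and WT 5). Bhlhe40, a repressor at E-boxes, was lowest in WT 4 at 9.41, against 9.86 to 10.49 in KO arrays. Its difference was 0.33 ± 0.17.

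**Figure D5:**
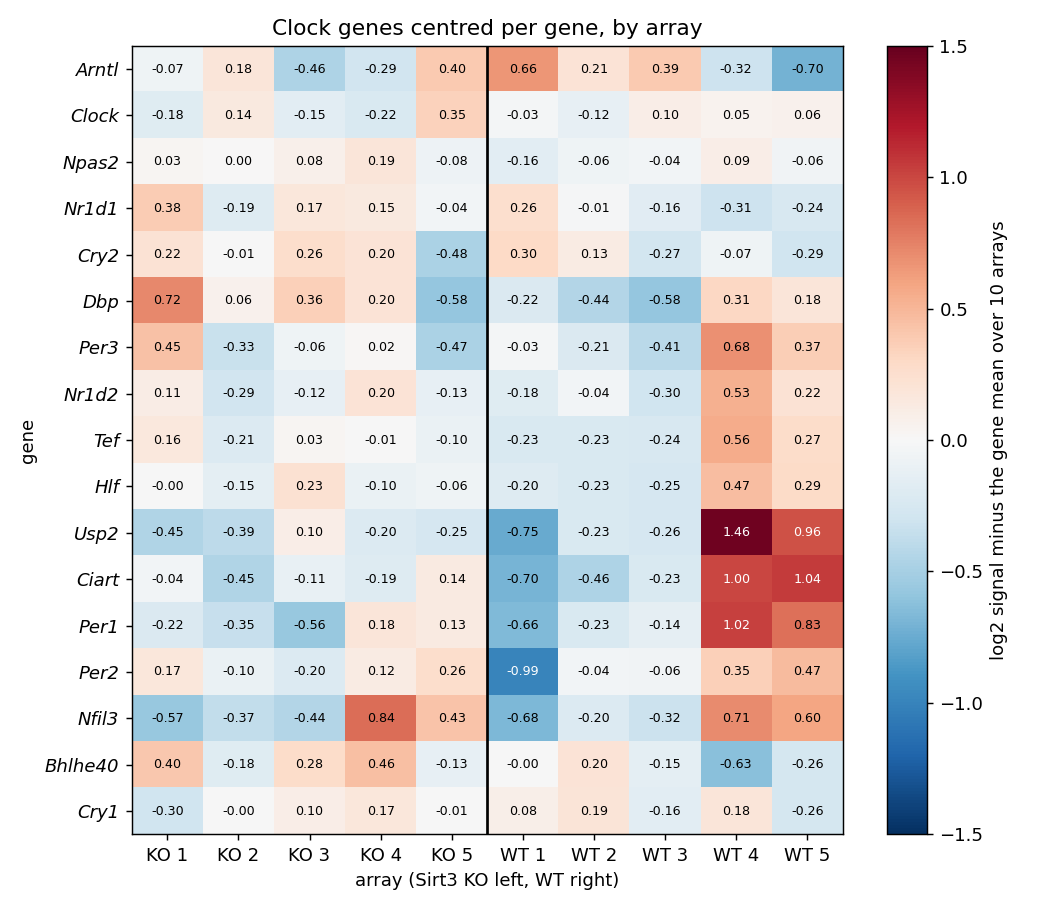
Log2 signal minus the gene's mean over 10 arrays (colour and printed value, log2 units) for 17 clock genes (rows) in KO 1 to 5 (left of the line) and WT 1 to 5 (right). WT 4 and WT 5 are high from Per3 down to Nfil3 and low in Arntl, and WT 1 shows the reverse for Arntl, Usp2, Ciart, Per1 and Per2.

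Glucocorticoid-responsive transcripts were high in the arrays that were high in Per1. Their list (10 of 10 measured, Per1 among them) averaged 9.53 to 10.73 log2 units in KO and 9.49 to 11.19 in WT arrays. Fkbp5, a chaperone of the glucocorticoid receptor, gave 6.01, 6.46, 7.11, 8.03 and 8.78 in KO 1 to 5, and 6.33, 7.44, 6.69, 10.54 and 8.74 in WT 1 to 5. WT 4, KO 5, WT 5 and KO 4 were thus the highest, the same 4 arrays that were highest in Per1 and in Nfil3. The mean of the list without Per1 correlated with Per1 at r = 0.87, and the list correlated with Per2 at 0.69, with Nr1d2 at 0.70 and with Dbp at 0.02 over the 10 arrays, which share tissue and array effects. The part of these transcripts in the Per values was not tested.

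Immediate early genes (9 of 9 measured) averaged 8.05 to 9.41 in KO and 7.14 to 9.81 in WT arrays, highest in WT 1. Their list mean correlated with Cry2 at r = 0.82, with Nr1d1 at 0.80 and with Per2 at -0.66. The brown adipocyte list correlated with Per1 at 0.85 and with Nr1d1 at -0.72. Within that list, Dio2, Elovl3 and Ppargc1a spanned 2.66, 2.13 and 1.07 log2 units over the arrays, and the other genes 0.05 to 0.32. What these lists contribute to the clock values was not tested.

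Of 9055 genes outside the lists with a mean above the median, those nearest to the phase index over the 10 arrays were Apoe, Glo1, Rnf220, Med16 and Snx24 (r = 0.86 to 0.90, and 0.70 to 0.84 without KO 5 and WT 3). Those most opposite were Rabepk, Rsl1d1, Tmem230, Snx13 and Brcc3 (r = -0.95 to -0.92, and -0.91 to -0.83 without the same arrays). Nearest to Per1 were Ubn2, Khdc4, Appbp2, Ppp4r1 and Coq10b (r = 0.93 to 0.96, and 0.81 to 0.98 without WT 4 and WT 5). These are the extremes of many correlations and are given as a description.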

How the data were processed

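Brown adipose tissue of 5 mice labelled Sirt3 KO and 5 WT littermates was read on 10 Affymetrix arrays, 1 per animal as the titles give them. The deposited values are log2 signals per probe set, made with RMA per the submitters' processing notes (background correction, normalization between arrays, probe summary); the sources used here give neither software nor settings for it. RMA makes array distributions alike and gives no detection call, and the number of arrays limits the precision. Gene names came from the platform annotation and RefSeq (GRCm38.p6), which matched 18032 of 18193 genes by gene ID.

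In R 4.3.3, a linear model with genotype as its only term was fitted to the 34945 probe sets with 1 gene (limma 3.58.1, lmFit then eBayes, two-sided tests). Benjamini-Hochberg adjustment ran over all these sets, with a threshold of 0.05. A gene is represented by its probe set with the highest mean over the 10 arrays. Correlations over arrays have two-sided permutation p-values from 100000 resamples. Errors beside differences are standard errors, and intervals are 95% confidence intervals. The fit and the correlation test were checked on simulated data. Named genes are the members, the list of other clock genes, marker genes, and the 5 genes nearest to each pattern described. The members and lists were chosen with earlier results of these data known. Alternatives covered the choice of probe set, normalization, variance model, weights, a filter on dim sets, a muscle covariate, the replicate block and arrays left out. Figures were drawn with matplotlib 3.10.9.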

Additional observations from a re-analysis of the deposited data

How the results depend on the processing

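Of the 10 clock genes and the 19 other clock genes measured, 0 passed limma in any of the 21 alternative fits, and the lowest adjusted p of the 10 clock genes was 0.662. Over all probe sets 1 passed without WT 2 and 0 in the other fits, so the values without 1 array ranged over 0 to 1. Of 207 alternative differences of clock genes, 190 kept their direction and 17 turned, all of them uncalled. Some of these runs could not turn a difference, because they return the same values. They are the replicate block, 1 probe set per gene, the other variance model and the filters on dim sets and on set names. The count of 190 is therefore not a measure of stability. With 1 array left out, Clock ranged up to 0.027 (without KO 4; 0.015 without KO 1, 0.0092 without KO 3) and down to -0.12 (without KO 5), and Cry1 from -0.080 (without WT 5) to 0.058 (without KO 1; 0.031 without WT 2, 0.029 without WT 4, 0.0053 without WT 1). Per2 ranged from -0.13 (without WT 1) to 0.23 (without WT 5), and Nr1d2 from -0.18 (without WT 3) to 0.030 (without WT 4). Without WT 4 and WT 5 together the differences were 0.0029 for Clock, 0.18 for Per1, 0.14 for Per3, -0.012 for Cry2 and 0.13 for Nr1d2. With the muscle covariate they were 0.014 for Clock and 0.045 for Cry1, and with array weights Cry1 was at 0.011. The cause of these turns was not tested.

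The number of member pairs past the adjusted threshold was 2 over all arrays, 4 with group means removed and 0 to 3 with 1 array left out (9 arrays each). The difference in the phase index ranged from -0.10 (muscle covariate) to 0.20 (Per2 minus Arntl, added like Arntl alone after the data were seen) over its alternatives. Refits of the main index stayed less than 1 SD within groups (0.31) from the value over all arrays. That SD does not apply to the indices with Arntl. Theirs were 0.57 in KO and 0.75 in WT with Arntl alone, and 0.29 in KO and 1.09 in WT for Per2 minus Arntl. The replicate block holds 1 KO and 1 WT array per number, so it cannot change a mean difference, and the index difference stayed at 0.029. That fit called 0 clock genes and 0 probe sets, and changed no other call. Deviations of arrays with the same number correlated between -0.40 and 0.24, and 0 of the 5 KO arrays correlated best with the WT array of their own number, so the numbers were not taken as pairs. Cry1 has no value without sets named _s_at, _x_at or _a_at, and Npas2 and Cry1 have none with the filter on dim sets.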
